A study of Mus musculus with 6 samples.

Results

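Triple stimuli, the combination of high glucose, palmitate and low oxygen, was compared with the untreated control in mProx24, a line of proximal tubular cells from mouse kidney of strain C57B6. The arrays were chosen by their titles, Triple stimuli and Control, and are 2 of the 6 arrays of the series, with 1 array per condition. The triple stimuli culture was kept at 1% oxygen for 12 h, then received palmitate at 150 µM bound to bovine serum albumin at 0.15% for 9 h, in high glucose, whose concentration the sources used here do not give. The control is labelled 20%, NG and PBS, where the triple stimuli culture is labelled 1%, HG and Pal. Albumin is named only as the carrier of palmitate, and the effects of carrier and fatty acid cannot be told apart. Both cultures came from 1 cell line grown in the same serum-containing medium, and both arrays were hybridised with Cy3-labelled product of 100 ng total RNA. The study set this combination, as a diabetic condition, against the control. The other 4 arrays are high glucose, palmitate, titled High FFAs, hypoxia, and triple stimuli after rapamycin at 0.4 µg/ml. They are used here to set the scaling, to choose the brightest probe of each miRNA, and as levels beside the members' values.

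miRNAs are short RNAs that guide Argonaute proteins to messenger RNAs, mostly by pairing of the seed, the stretch near the 5′ end, with sites in the 3′ untranslated region, and so lower the output of their targets. Each is cut from a hairpin precursor, which can give a product from its 5′ arm (5p) and from its 3′ arm (3p). In the proximal tubule, which reabsorbs most of the filtered glucose and runs on fatty acid oxidation, miRNAs have been linked to low oxygen (miR-210), to injury and fibrosis (miR-21, miR-29) and to epithelial identity (miR-30, miR-192, miR-200).

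The sequences of the miRNAs with the largest differences are shown first, because the G content described below can be read from them. RefSeq (GRCm38.p6) held the mature sequence of 5 of the 9 miRNAs called higher and of all 3 miRNAs that were detected with triple stimuli but not in the control and exceeded the control by at least 1.5-fold. Capitals mark the seed, bases 2 to 8, read 5′ to 3′.
miR-5126: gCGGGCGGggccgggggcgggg
miR-2861: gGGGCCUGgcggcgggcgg
miR-3102-5p: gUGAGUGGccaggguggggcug
miR-6538: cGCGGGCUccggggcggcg
miR-211-3p: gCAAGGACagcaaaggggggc
miR-210-3p: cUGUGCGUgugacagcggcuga
miR-149-3p: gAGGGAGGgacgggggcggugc
miR-135a-1-3p: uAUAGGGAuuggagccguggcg
For contrast, the lowest differences among miRNAs detected on both arrays included the following, shown with miR-21a-5p, the abundant injury-associated miRNA.
miR-202-3p: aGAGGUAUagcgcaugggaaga
miR-484: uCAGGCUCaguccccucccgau
miR-181b-5p: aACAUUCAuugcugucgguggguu
miR-345-5p: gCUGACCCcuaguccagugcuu
miR-30e-5p: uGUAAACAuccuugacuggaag
miR-21a-5p: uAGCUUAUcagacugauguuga

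Of the 5 miRNAs called higher that have a sequence, 0 shared bases 2 to 8 with any other miRNA detected on both arrays. The 132 miRNAs detected on both arrays with a sequence held 100 seeds, of which 18 were shared by 2 or more. An unshared seed was thus common, and the count of 0 is no result about the called miRNAs. Their positions, in GRCm38.p6, were as follows. miR-5126 maps to chr1:84695890-84695911 on the plus strand, inside the span of Dner. miR-2861 maps to chr2:32712819-32712837 on the minus strand, outside any other annotated gene. miR-3102-5p lies at chr7:100882388-100882409 on the minus strand, inside Arhgef17. miR-6538 lies at chr12:26414970-26414988 on the minus strand, inside Rnf144a. miR-211-3p lies at chr7:64205868-64205888 on the plus strand, inside Trpm1, the melastatin gene that hosts miR-211. Of the miRNAs with a bound, miR-210-3p is at chr7:141221407-141221428 (minus strand, in no other annotated gene), miR-149-3p at chr1:92850421-92850442 inside Gpc1, and miR-135a-1-3p at chr9:106154179-106154200 inside Glyctk and the lncRNA D030055H07Rik. The RefSeq table used here gives gene spans, so exon and intron are not distinguished.

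The arrays carried 1247 mouse miRNAs, of which 164 were detected in the control and 185 with triple stimuli. A miRNA counted as detected where at least 0.5 of the spots of any of its probes were well above background. The raw 75th percentile of the scaling probes was 295 in the control, the lowest of the 6 arrays, and 346 with triple stimuli, while the spike-in probes differed by a ratio of 1.01. Of the proximal tubule markers 2 of 6 were detected on both arrays (miR-30a-5p and miR-10a-5p), and of the epithelial miR-200 markers 0 of 5. Blood (4 on the array), fibroblast and smooth muscle (4), neuron (2) and hepatocyte (1) markers were detected on neither array, and the muscle miRNA miR-206-3p was detected on both, at 108 in each. With 1 array per condition there is no replicate check, no test of the conditions and no p-value, and the standard errors given here cover only the spread between spots within an array.

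On the triple stimuli array 9 of 161 miRNAs detected on both arrays were called higher than in the control, which is 5.59% of those compared, and 0 were called lower, which is 0%. A call needed a difference of at least 1.5-fold, or 0.585 on the log2 scale, and of more than 2 spot standard errors. The rest of the profile moved little: 118 of 161 miRNAs, 73.3%, lay within 1.2-fold of the control, and the median difference was 0.01 on the log2 scale, with quartiles at -0.13 and 0.21. The calls were spread over the range of brightness, with 3 among the 54 dimmest miRNAs, 4 among the 53 of middle brightness and 2 among the 54 brightest. No miRNA brighter than miR-5126 was called.

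**Figure D1:**
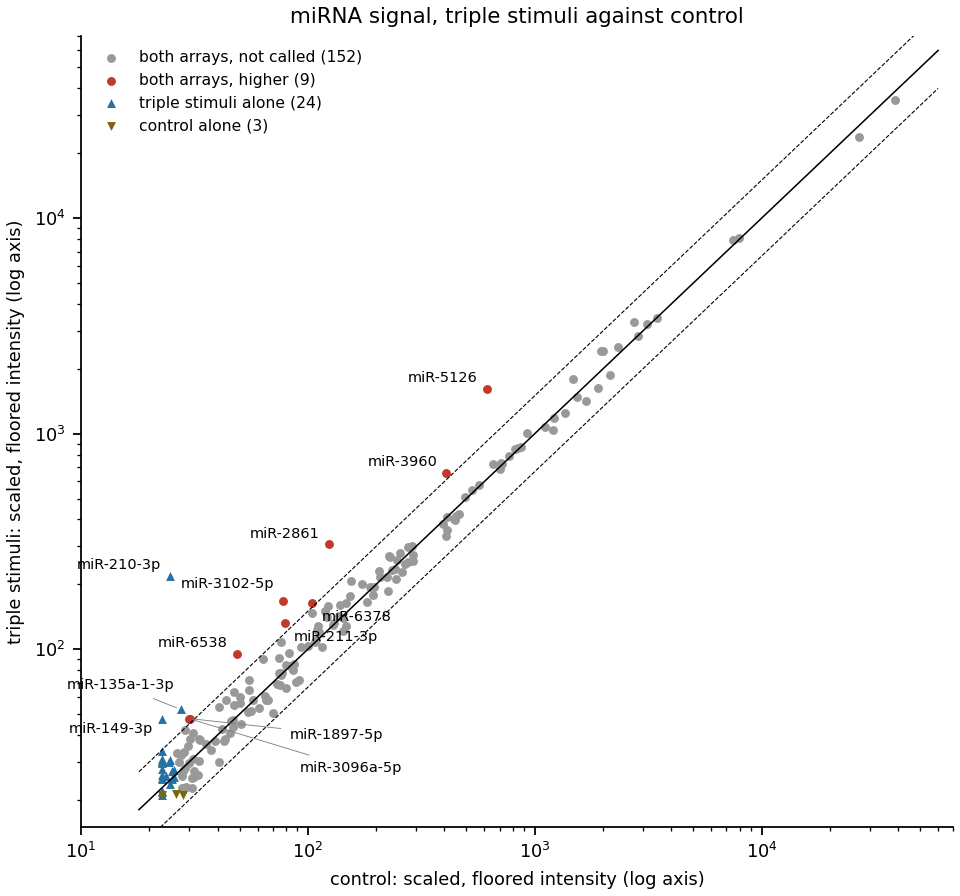
Each point is 1 miRNA, with its scaled intensity in the control on the x axis and with triple stimuli on the y axis, both log axes; the solid line marks equality and the dashed lines 1.5-fold. The 9 red points, called higher, run from near the floor to miR-5126 at 1615, and miR-210-3p stands farthest from the diagonal among the miRNAs detected with triple stimuli alone.

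miR-210-3p, which hypoxia-inducible factor induces in many cell types, checked the oxygen label. Its signal was 24.7 in the control, not well above background, and 219 with triple stimuli, so that it was at least 8.88-fold higher (log2 3.15, spot SE 0.11). The 20 control spots of its brightest probe ran from 9.38 to 36.5 and the 19 triple stimuli spots from 199 to 242. Its second probe, also below the detection limit in the control, gave a bound of 2.76 on the log2 scale. On the other arrays it read 24.1 with high glucose, 23.2 with palmitate, 260 with hypoxia and 206 with triple stimuli plus rapamycin. The arrays at 1% oxygen thus lay between 206 and 260, and those at 20% oxygen at or near the floor. The other arm of the hairpin, miR-210-5p, was detected on neither array.

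miR-5126 had the largest difference among miRNAs detected on both arrays. Its signal was 616 in the control and 1615 with triple stimuli, a 2.62-fold difference (log2 1.39, spot SE 0.02). No spot of its brightest probe overlapped between the arrays: the highest of 20 control spots was 656 and the lowest of 20 triple stimuli spots 1530. miR-2861, described as a regulator of osteoblast differentiation, read 123 and 306, a 2.48-fold difference (log2 1.31, spot SE 0.03). Its second probe, the brighter of its probes in the control at 147, gave 0.92. miR-3960, known as its neighbour in the genome, read 407 and 656, a smaller difference of 1.61-fold (log2 0.69, spot SE 0.01) that its second probe gave as 0.67. Both were above the control, by unequal amounts.

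miR-3102-5p read 77.9 in the control and 167 with triple stimuli, a 2.14-fold difference (log2 1.10, spot SE 0.04), and its dimmer probe gave 1.66. miR-6538 read 48.6 and 95.0, a 1.95-fold difference (log2 0.97, spot SE 0.05). Its dimmer probe gave 1.22. miR-211-3p, from the passenger arm of a hairpin best known in melanocytes, read 79.3 and 132 (1.66-fold, log2 0.73). The main arm, miR-211-5p, was detected on neither array.

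The remaining calls were close to the limit. miR-3096a-5p read 29.8 and 47.7 (1.60-fold, log2 0.68, spot SE 0.09). miR-1897-5p read 30.1 and 47.7 (1.58-fold, log2 0.66, spot SE 0.07), and the other arm, miR-1897-3p, was above 0 too but below the limit, at 0.21. For these dim miRNAs single spots of the 2 arrays overlapped. miR-6378 read 105 and 164 (1.56-fold, log2 0.65, spot SE 0.05), and its other probe was detected on neither array. Just below the limit stood miR-3096b-5p at 1.47-fold (log2 0.55, spot SE 0.09), which read 28.7 and 42.0. The brightest probe of each miRNA made its call. Of the 9 second probes, 6 were detected on both arrays, and those 6 differed by at least 1.5-fold, from 0.67 to 1.66 on the log2 scale.

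The number of calls depended on how the arrays were brought to one scale. Rescaling moves all differences by 1 amount, so it leaves the distance between miRNAs as it is. It set the median over all miRNAs between -0.16, with scaling to the median of detected probes, and 0.24, with no scaling, and the count of higher calls between 4 and 20. The 9 miRNAs stood 0.63 to 1.38 above that median on the log2 scale. Where the processing could change this distance, its lowest value among the 9 was 0.15 with normexp background correction, 0.27 with the mean of all probes, 0.48 with odd-numbered spots and 0.59 with quantile normalisation. miR-5126, miR-2861 and miR-3102-5p were called higher under 14 of 14 alternatives at the 1.5-fold limit, miR-6538 under 13, miR-211-3p and miR-3960 under 11, miR-3096a-5p under 10, miR-1897-5p under 9 and miR-6378 under 7. The first 3 of these also passed a 2-fold limit.

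**Figure D2:**
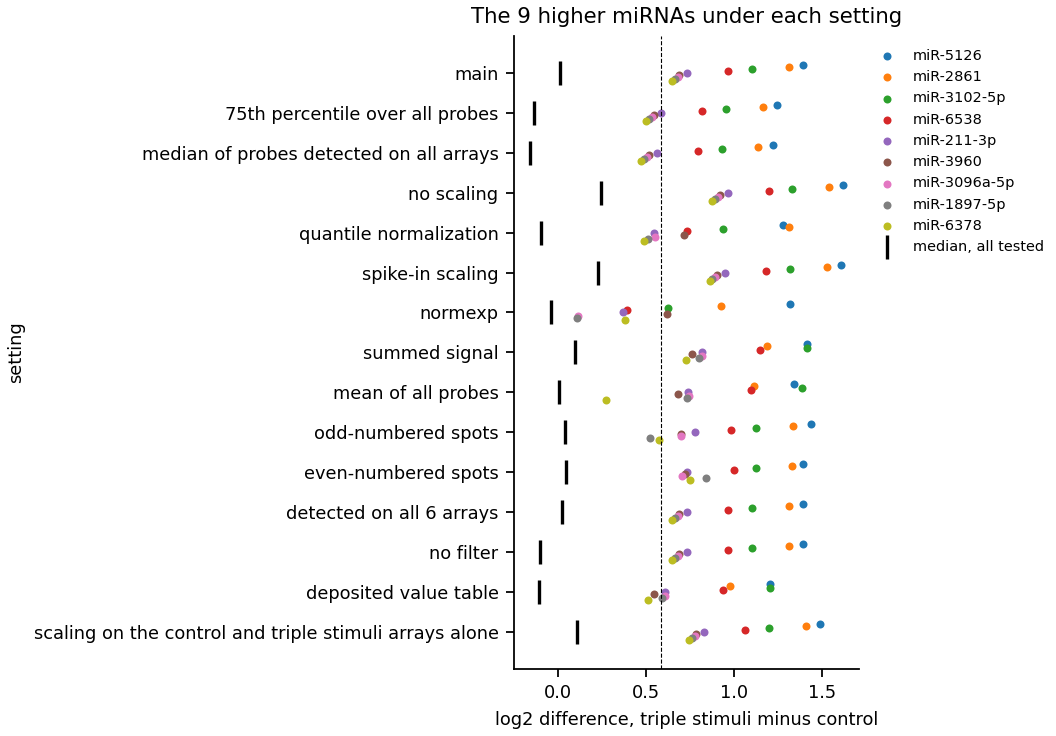
Log2 difference of triple stimuli minus control for the 9 higher miRNAs (coloured points) and the median over all miRNAs compared (black tick), with 1 row for each way of processing the arrays; the dashed line marks 1.5-fold. miR-5126, miR-2861 and miR-3102-5p lie right of the line in every row, while miR-6378 crosses it.

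All 5 called miRNAs with a sequence were rich in G. G made up 47.6% to 77.3% of their bases, with a median of 59.1%, against a median of 27.3% over the 127 other miRNAs detected on both arrays with a sequence. miR-5126 held 17 G in 22 bases and 0 A or U. Each of the 5 held a run of at least 4 G, as did 11 of the 127 others. The 8 with a sequence among the 10 lowest differences had a median G content of 23.3%. These classes were drawn up after the values had been seen, and they are descriptions of 2 arrays with no test.

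By class of G content, the median difference was near that of all miRNAs up to 50% G and above it beyond. The median difference was -0.03 for the 30 miRNAs with up to 20% G, -0.04 for the 39 above 20 to 30%, -0.01 for the 31 above 30 to 40% and 0.03 for the 21 above 40 to 50%. Above 50% it was 0.29, and 11 of 11 miRNAs lay above the median of all miRNAs, at 0.08 or more, of which 4 were called. The 7 that were not called ran from miR-3072-5p (0.08) to miR-2137 (0.42), with miR-1224-5p at 0.29. Across the 132 miRNAs Pearson's r of the difference on G content was 0.49 and Spearman's rho 0.28; without the called miRNAs they were 0.25 and 0.20. On G and C together Pearson's r was 0.40 with the called miRNAs and 0.05 without them, and Spearman's rho 0.05 and -0.07. The points share 2 arrays and are not independent, and what the G content stands for was not tested.

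**Figure D3:**
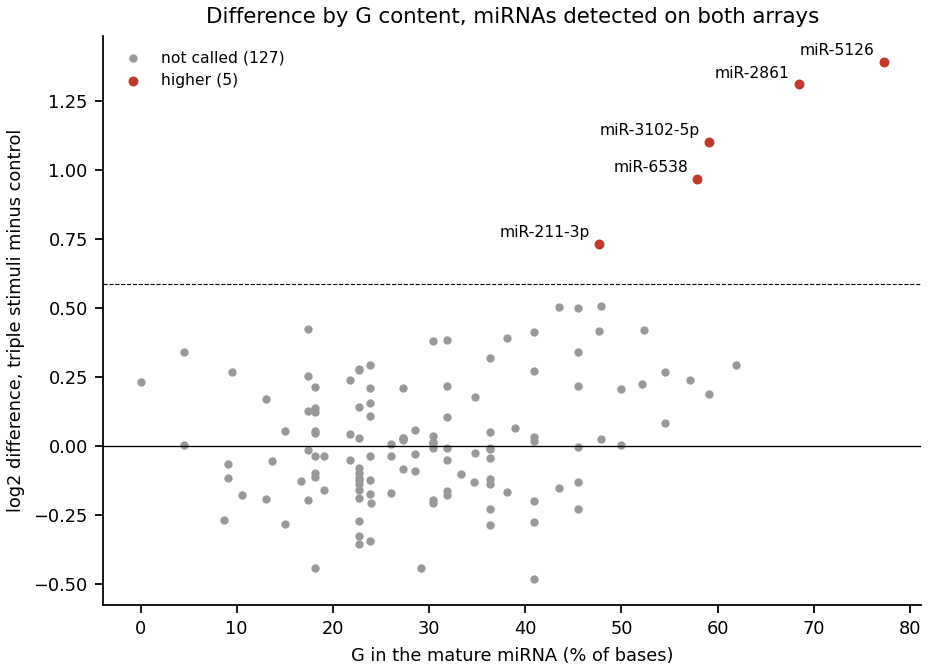
Log2 difference of triple stimuli minus control (y axis) against the percentage of G in the mature miRNA (x axis) for the 132 miRNAs detected on both arrays with a RefSeq sequence; red points were called higher and the dashed line marks 1.5-fold. The called miRNAs occupy the G-rich end, from 47.6% to 77.3%, and the lowest miRNA above 50% G lies at 0.08.

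Set beside the other arrays, triple stimuli gave intermediate levels of the called miRNAs. For miR-5126 the levels were 616 in the control, 641 with palmitate, 782 with hypoxia, 1615 with triple stimuli, 2501 with triple stimuli plus rapamycin and 3566 with high glucose. miR-2861 followed the same order, with 123, 130, 153, 306, 468 and 633. So did miR-3102-5p, with 77.9, 81.8, 106, 167, 230 and 338. The array labelled high glucose was highest for 7 of the 9, and triple stimuli stood in position 3 from the top for 8 of 9. The 9 were chosen for triple stimuli above the control, which bears on its position. The same counts over all miRNAs are not given here, so these describe the 9 alone. With rapamycin added, the level was highest for miR-1897-5p (51.9 with high glucose, 47.7 with triple stimuli, 55.3 with rapamycin added) and miR-3096a-5p (43.4, 47.7 and 59.4), the dimmest of the called miRNAs. Hypoxia alone read 27.5 for miR-3096a-5p, 97.3 for miR-6378 and 388 for miR-3960, below the control values of 29.8, 105 and 407. It was slightly below the control for miR-1897-5p (29.4 and 30.1) and miR-6538 (47.3 and 48.6) too. For the remaining called miRNAs hypoxia read above the control. The labels of high glucose and palmitate are uncertain here: in the deposited value table the column of high glucose matched the scanner file of palmitate for 70.9% of the miRNAs above its floor, within 0.1%, and the reverse for 70.6%, whereas the control and triple stimuli columns matched their own files for 68.7% and 73.0%.

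**Figure D4:**
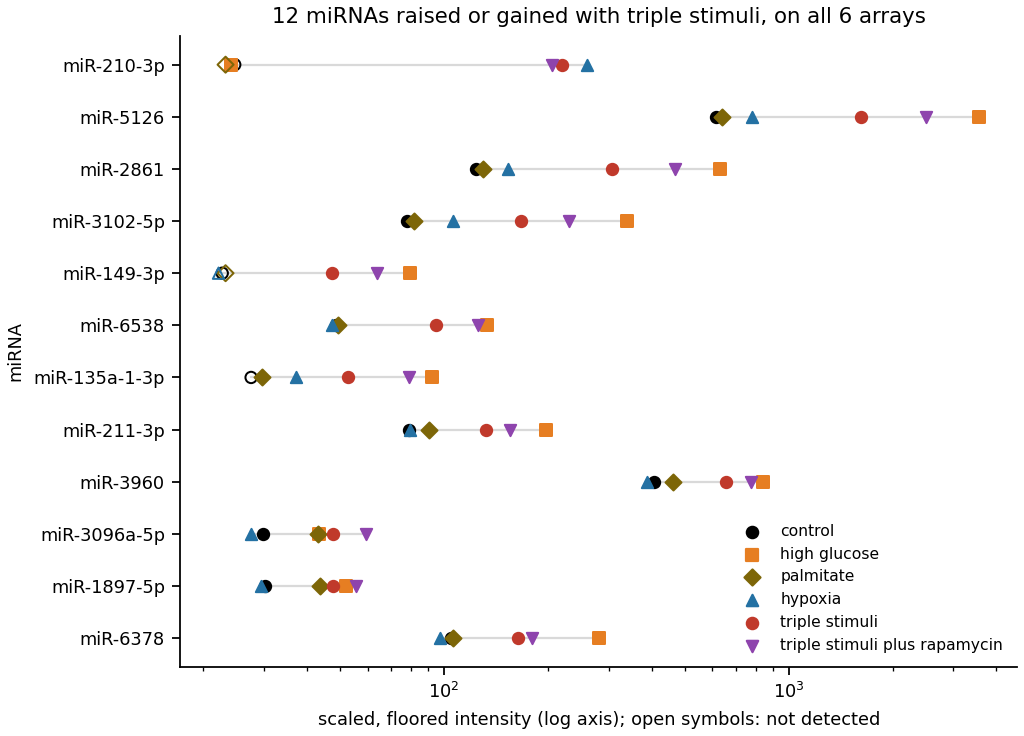
Scaled intensity (x axis, log) of the 9 miRNAs called higher and the 3 detected with triple stimuli alone at 1.5-fold or more, on each of the 6 arrays; open symbols mark arrays without detection. Triple stimuli (red) lies above hypoxia (blue) and below triple stimuli plus rapamycin (purple) for all but miR-210-3p. That miRNA is high on the 3 arrays at 1% oxygen, and highest with hypoxia.

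With triple stimuli 24 miRNAs were detected that were not detected in the control, 2.22% of the 1083 below the limit there. Conversely, 3 of the 164 detected in the control were not detected with triple stimuli, 1.83%. Beside miR-210-3p, 2 gained miRNAs exceeded the control by the fold limit. miR-149-3p, the passenger arm of its hairpin, was at the floor of 22.7 in the control and read 47.3 with triple stimuli, at least 2.08-fold higher (log2 1.06). The spots of this probe did not overlap, but the other probe was detected on neither array, and the bound was 0.48 with the mean of all probes and 0.23 with normexp, both under the limit. The main arm, miR-149-5p, went the other way, from 61.1 to 53.3 (log2 -0.20). This difference was 0.03 on unscaled arrays and 0.02 when the spike-in probes set the scale. It lay below the median of all miRNAs under 14 of 14 alternatives, but those that only rescale cannot change that side. miR-135a-1-3p read 27.5 and 52.5, at least 1.91-fold higher (log2 0.93), and both of its probes above background with triple stimuli were not well above background in the control. Its other 2 probes were detected on neither array, single spots of the arrays overlapped, and the bound was 0.38 with the mean of all probes and 0.20 with normexp.

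The other gained miRNAs were faint. miR-680 (at least 1.48-fold), miR-483-5p from the Igf2 locus (1.36-fold), miR-5117-5p (1.34-fold), miR-28a-5p (1.33-fold) and miR-3077-5p (1.32-fold) had the largest bounds, all below the limit, and for 6 of the 24 no fold could be given. The mTOR-targeting miR-100-5p read 25.7 in the control and 27.6 with triple stimuli, which is a difference in detection rather than in level. Of the 24, 21 were also detected on the array labelled high glucose, 23 with rapamycin added, 10 with hypoxia and 6 with palmitate. Over all miRNAs, 198 were detected on at least 1 of the 6 arrays. The share of other miRNAs detected on each array is not given here, so the overlap is no result about the 24. The 20 with a sequence had a median G content of 41.9%. The control array was the dimmest before scaling, and its part in these gains was not tested. The miRNAs lost were miR-744-5p (28.1 in the control, at the floor of 21.2 with triple stimuli), miR-425-5p (26.1 and 21.3) and let-7b-3p.

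No miRNA fell below the control by 1.5-fold with this scaling. The lowest differences were miR-202-3p, which read 70.6 in the control and 50.5 with triple stimuli (log2 -0.48, spot SE 0.06), miR-484 (31.0 and 22.8, log2 -0.44) and miR-181b-5p (40.7 and 29.9, log2 -0.44, spot SE 0.11). The second probe of miR-202-3p gave -0.42, while that of miR-181b-5p was detected on neither array. These 3 were called lower with scaling over all probes, scaling to the median or quantile normalisation, and so stood at the limit. miR-345-5p (-0.36), miR-3085-3p (-0.34), miR-1839-3p (-0.33), miR-30e-5p (-0.33), miR-185-5p (-0.31), miR-99b-3p (-0.29) and miR-466q (-0.28) made up the rest of the 10 lowest. All but miR-484 stayed below 0 under each alternative that compared them, and miR-484 did so under 11 of 12. On unscaled arrays the 10 ran from -0.25 for miR-202-3p to -0.05 for miR-466q, whose spot SE was 0.10. With triple stimuli miR-484, miR-3085-3p and miR-466q read 22.8 to 22.9, near the floor of 21.2.

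No member of the lists of known function was called with this scaling; miR-210-3p has only the bound above. With 5.59% of all miRNAs called higher, a count of 0 in lists of 3 to 12 compared members lies near that share and is no result about the lists, whose values are given as a description. In the low-oxygen list 0 of 12 members detected on both arrays were called, with a median of -0.08 beside 0.01 over all miRNAs. Its highest were miR-21a-5p, which read 2728 and 3306 (log2 0.28, spot SE 0.02), and miR-322-5p, an oxygen-sensitive miRNA of the miR-15/16 seed family, which read 74.9 and 90.7 (0.28, spot SE 0.06). miR-155-5p, of the same list and the main inflammatory miRNA, read 189 and 193 (0.04). The proximal tubule list had 0 of 7 members called and a median of -0.15. Within it the miR-30 family of kidney epithelium was uneven, with miR-30e-5p at -0.33, miR-30a-5p at -0.27 (406 and 336), miR-30c-5p at -0.27, miR-30d-5p at -0.15 and miR-30b-5p at 0.04. miR-30a-5p, miR-30c-5p and miR-30e-5p stayed below 0 under 14 of 14 alternatives, but on unscaled arrays they read only -0.04, -0.04 and -0.10. The list's median minus that of all miRNAs ran from -0.26 to -0.09 where detected miRNAs were compared. With no filter it was 0, since most miRNAs were then at the floor. The list's median itself was 0.08 on unscaled arrays and 0.06 on the spike-in scale.

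The fibrosis and diabetic kidney list had 0 of 8 called, from miR-196a-5p (-0.14) to miR-21a-5p, with a median of 0.02. The miR-29 family, which represses collagens, read -0.02 for miR-29b-3p, 0.14 for miR-29a-3p and 0.21 for miR-29c-3p. Its median stood 0.08 to 0.16 above that of all miRNAs where detected miRNAs were compared. With no filter, where most miRNAs were at the floor, it stood 0.24 above. In the lipid and glucose list, 0 of 7 were called: miR-103-3p (-0.20) and miR-107-3p (-0.17), which act on insulin signalling, were the lowest, and miR-370-3p (0.34; 30.1 and 38.1) the highest. The mTOR list had 0 of 6 called, from miR-99b-5p (-0.19) to miR-7a-5p, which read 122 and 159 (0.38, spot SE 0.06). The p53 list had 0 of 5 called, with miR-34a-5p, a direct p53 target, at 0.05. The inflammation list had 0 of 3 called, and its lowest was miR-212-3p (-0.10).

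Families grouped by seed differed in their spread. The 9 let-7 miRNAs, with seed GAGGUAG, ran from let-7b-5p (-0.23; 1906 and 1627) to miR-98-5p (0.10), with a median of -0.04. The 5 members of the miR-17 seed family ran from -0.03 to 0.06, while miR-3473b (0.0045) and miR-3473e (0.42), which share a seed, were the farthest apart of the 18 families, and miR-130a-3p (-0.08) and miR-301a-3p (0.24) also differed. Within the miR-17/92 list, miR-19a-3p (43.5 and 58.3, log2 0.42) and miR-19b-3p (228 and 272, log2 0.25) share a seed of their own. They stood above miR-92a-3p (-0.12, and 0.11 on unscaled arrays), which lies in the same cluster on chromosome 14. miR-19b-3p and miR-92a-3p also map to a cluster on chromosome X, so their signals cannot be split between the loci. The miR-23/27/24 clusters ran from miR-24-3p (-0.16) to miR-27a-3p (0.11), and the ribosomal precursor products from miR-712-5p (-0.21) to miR-5105 (0.03). Both arms were detected on both arrays for 11 hairpins, paired by name, and the widest gap was 0.77, between miR-3096b-5p (0.55) and miR-3096b-3p (-0.21; 1201 and 1035). The next were miR-125a, with -0.13 for the 5p arm and 0.41 for the 3p arm, and miR-1897, with 0.66 and 0.21.

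The calls were also set out by miRBase number. Entries numbered 1000 and above, which are mostly later and less well characterised, gave 8 of the 9 calls, 8 of 48 compared or 16.7%, with a median of 0.21. Entries below 1000 gave 1 of 113, miR-211-3p, or 0.885%, with a median of -0.03. This split was made with the earlier result known and has no test.

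**Figure D5:**
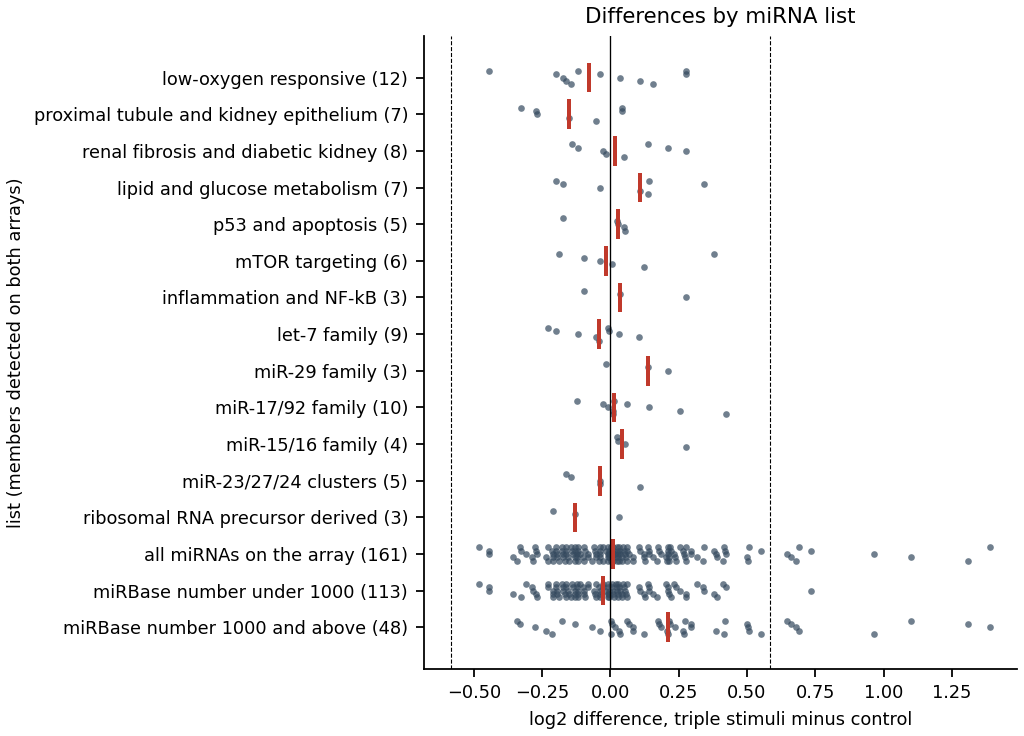
Log2 difference of triple stimuli minus control for each miRNA detected on both arrays (points), by list, with the median as a red bar and dashed lines at 1.5-fold in each direction. With this scaling the lists of known function and family lie between -0.44 and 0.42, while the points past 1.5-fold are in the entries numbered 1000 and above, except miR-211-3p.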

How the data were processed

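Cy3 Agilent mouse miRNA arrays, 1 per condition, were read with Agilent Feature Extraction (version 10.7.3.1 per the submitters' processing notes). The authors' deposited scanner intensity values are linear, background-subtracted by that software per the file headers, and not normalised between arrays. Spot and gene flags, recorded here as other values, were used as deposited. The deposited value table, used as an alternative, is on a different scale for each array. In the median, the software's summed signal was 21.1 times the table's value in the control and 27.1 times with triple stimuli. Spots flagged as outliers were left out. A probe's value was the mean of its spots (median 20 per probe), scaled so that the 281 probes detected on every one of the 6 arrays had a common 75th percentile, with a floor at the lowest detected signal (22.7 in the control, 21.2 with triple stimuli) then taken to log2. The brightest probe, by its mean over the 6 arrays, stood for a miRNA. A miRNA detected on 1 array has a bound, "at least", against its dim signal or the floor, whichever was higher. No spot was saturated (0). Named were the calls, gains past 1.5-fold, the 10 highest and lowest differences and each list's extremes. Members and lists were chosen with earlier results of these data known. The code that makes the calls was tested on simulated data, which does not test the calls themselves. Normexp used limma 3.58.1 in R 4.3.3. RefSeq held 155 of 188 detected miRNAs' sequences. The number of arrays limits the precision.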

Additional observations from a re-analysis of the deposited data

How the results depend on the processing

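The count of higher miRNAs, 9, became 5 with the 75th percentile over all probes, 4 with the median of detected probes, 20 with no scaling, 5 with quantile normalisation, 20 with spike-in scaling, 4 with normexp, 18 in the deposited value table and 3 at a 2-fold limit. It was 8 to 13 with the other alternatives, which include scaling on the 2 arrays alone, chosen after seeing the data (13). The count of lower miRNAs, 0, became 3 with scaling over all probes, the median or quantile normalisation, 1 with odd-numbered spots and 7 in the deposited table. Calls in the deposited table used the fold limit alone, without spot standard errors. They were made over the 208 miRNAs above its floor on both arrays, so these counts follow a looser rule. The deposited table gave 14 miRNAs above its floor with triple stimuli alone and 6 with the control alone, and the other alternatives 19 to 24 and 2 to 4. The median difference was -0.14 with all probes, -0.16 with the median, 0.24 with no scaling, -0.10 with quantile normalisation, 0.23 with spike-in scaling, -0.043 with normexp, 0.10 with the summed signal, -0.10 with no filter, -0.11 in the deposited table and 0.11 with the 2 arrays alone. The log2 bound of miR-210-3p was 3.00 with all probes, 2.98 with the median, 3.38 with no scaling, 3.37 with spike-in scaling, 1.53 with normexp, 2.96 with the mean of all probes, 2.94 with odd-numbered spots, 3.37 with even-numbered spots and 2.99 in the deposited table. Normexp adds 50 to every signal, which narrows differences of dim miRNAs. With no filter, or detection required on all 6 arrays, gains of detection have no value. Neither alternative changes the difference of a miRNA detected on all 6 arrays. The median of -0.10 with no filter is the difference between the floors, since 1059 of 1247 miRNAs were detected on neither array. Of 687 values of the 50 named miRNAs under alternatives, 239 moved by less than the spot standard error and 448 by more, and 0 values of called miRNAs changed sign. Direction relative to the control thus depends on the scaling for small differences. No paired analysis was possible because each condition has 1 array. Without replicates, differences between cultures and between arrays cannot be told apart.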

Other observations

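The scanner software's own detection rule, not used above, called 214 miRNAs in the control and 222 with triple stimuli. Of miRNAs that met the rule above on none of the 6 arrays, it called 8 with triple stimuli alone and 6 in the control alone.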
